A study of Mus musculus with 9 samples.

Results

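The genes described here encode the subunits of the mitochondrial oxidative phosphorylation machinery. They were taken by symbol, as every gene on the array whose name begins with Nduf, Uqcr, Cox4, Cox5, Cox6, Cox7, Cox8 or Atp5, together with Sdha, Sdhb, Sdhc and Sdhd. This gave 92 genes of 22911 named on the array, and 91 of them were among the 16593 that could be tested. Complexes I to IV pass electrons from NADH and succinate to oxygen and pump protons across the inner mitochondrial membrane, and complex V uses the proton gradient to make ATP. Complex IV has several subunits with alternative isoforms that are typical of muscle, testis or lung. In the lung, type II epithelial cells and ciliated cells are known for dense mitochondria.

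RNA from whole lungs of male C57BL6/J mice was hybridised to arrays of 1 colour. The mice were 12 weeks old when exposure began and inhaled IQOS aerosol (3.5%), cigarette smoke (CS, 3.5%) or air for 6 months. IQOS is a device that heats tobacco without burning it. Each of the 3 groups had 3 arrays, and no label ties an array to an animal of its own. The p-values therefore rest on differences between arrays that may be technical. The CS and air arrays shared a slide, and the IQOS arrays were on another. An effect of IQOS and an effect of its slide cannot be told apart. All 6 markers of alveolar type II cells were measured, with summed scaled signals of 1034 to 1142 in IQOS, 1133 to 1204 in CS and 1122 to 1127 in air lungs. Levels below are log2 signals relative to the 75th percentile of the same array. They compare samples for 1 gene, not 1 gene with another.

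By class, the 92 genes comprised 38 named as complex I subunits, 8 complex I assembly factors (Ndufaf), 4 of complex II, 8 of complex III, 17 of complex IV and 17 of complex V. Complex IV was divided into 10 widely expressed subunits and 7 tissue-restricted isoforms (Cox4i2, Cox6a2, Cox6b2, Cox7a1, Cox7b2, Cox8b and Cox8c). Ndufa4 and its paralogue Ndufa4l2 are counted with complex I by name, although the Ndufa4 protein is now known as a complex IV subunit. Of the 96 protein-coding mouse genes with such names in RefSeq, 4 had no matched probe (Cox5b, Ndufb1, Ndufb4b and Ndufb4c). Cox8c was not well above background on any array and was not tested. The reported probes of the other 91 genes were well above background on all 9 arrays, so the filter on dim probes selected none of them through a single group.

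After either exposure most respiratory chain transcripts lay close to their levels in air lungs: the 95% interval of the change was within 1.25-fold in 79 of 91 genes for CS and in 78 of 91 for IQOS. CS against air gave 0 of 91 genes called, where called means a Benjamini-Hochberg adjusted p under 0.05 in limma. Over all tested genes 11.7% were called in that comparison. At an unadjusted p under 0.05 there were 6 of 91 genes, against 31.2% of all genes. IQOS against air gave 1 gene higher, Cox7b2, and 1 lower, Ndufab1, against a background of 2.87% called. IQOS against CS gave the same pair of genes in the same directions, from the same IQOS arrays, against a background of 10.1%. The unadjusted counts were 10 of 91 for IQOS against air and 11 of 91 for IQOS against CS, with backgrounds of 20.3% and 29.3%. Limma with an intensity trend and robust moderation called 2 genes for CS against air, Ndufb3 and Cox4i1. It called 4 for IQOS against air and 6 for IQOS against CS.

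**Figure D1:**
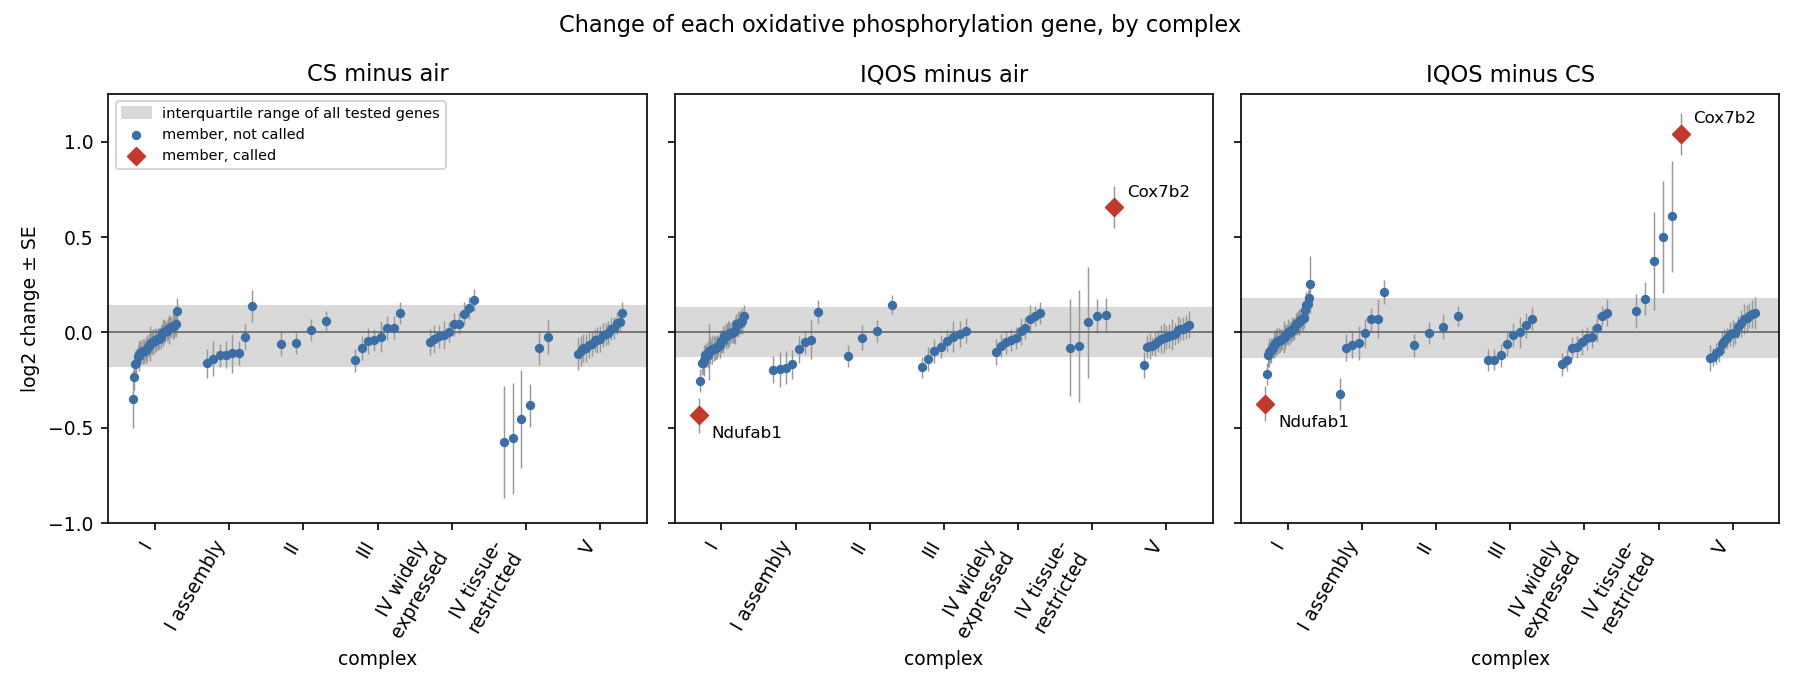
Log2 change (vertical axis, ± SE) of each of the 91 tested genes in the 3 comparisons, grouped by complex along the horizontal axis, with called genes as red diamonds and the grey band spanning the interquartile range of all tested genes. Most points lie within the band. The points farthest outside it belong to the tissue-restricted isoforms of complex IV and to a few genes of complex I and its assembly factors.

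The median change of the 91 genes was -0.039 on the log2 scale for CS against air, beside -0.016 for all tested genes. It was -0.039 for IQOS against air, beside -0.012, and -0.0054 for IQOS against CS, beside 0.017. The last of these medians changed sign between settings, from -0.031 to 0.041. Below 0 lay 62 of 91 changes for CS against air and 63 of 91 for IQOS against air. Over all tested genes 8795 and 8736 of 16593 lay below 0 in these comparisons. Both comparisons rest on the same air arrays. The medians were small beside the differences between arrays of 1 group. Set against each gene's mean in air, the median over the 91 genes was -0.080, -0.027 and -0.018 on the IQOS arrays. It was -0.0042, -0.010 and -0.10 on the CS arrays, and -0.046, 0.057 and 0.0022 on the air arrays. The 3 groups overlapped, and CS 3 was the lowest array.

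**Figure D2:**
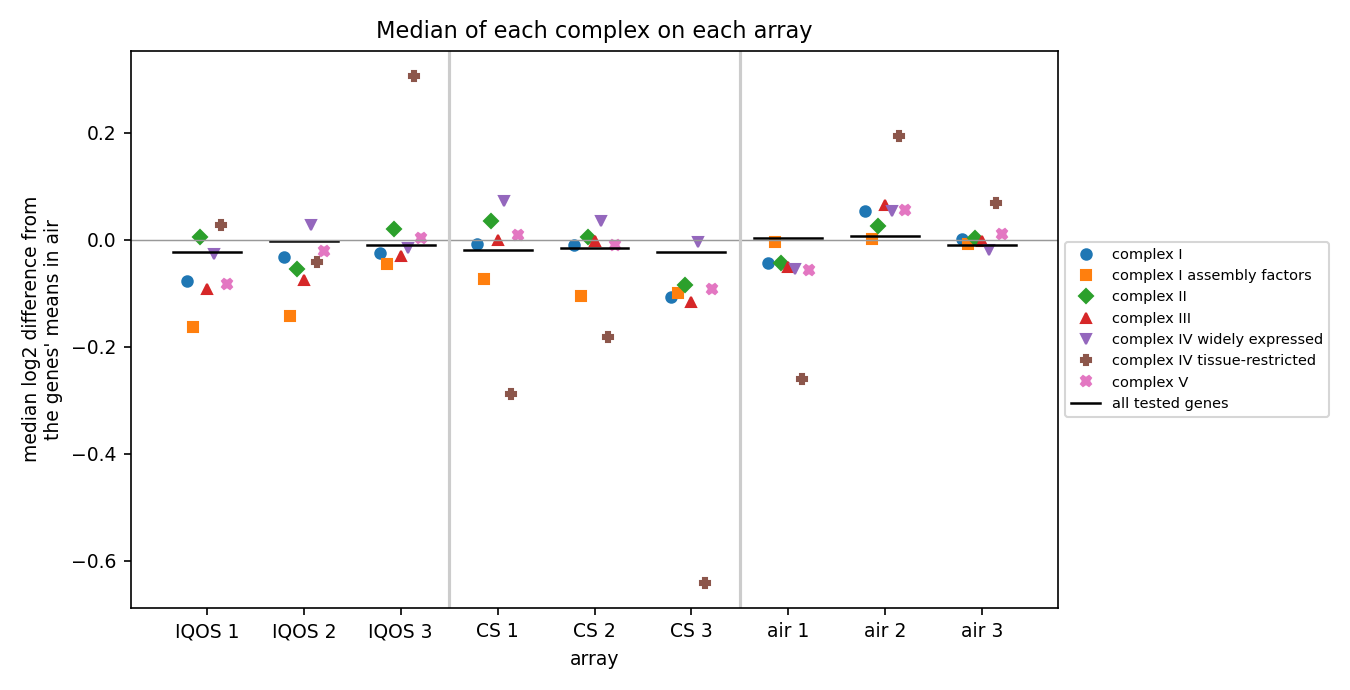
Median log2 difference from the genes' means in air (vertical axis) for each complex on each of the 9 arrays (horizontal axis), with black bars for all tested genes. The other classes lie between -0.16 and 0.071, and the tissue-restricted complex IV isoforms lie at 0.31 on IQOS 3 and -0.64 on CS 3.

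Complex I, which oxidises NADH, had a median change of -0.040 for CS against air, -0.046 for IQOS against air and -0.0038 for IQOS against CS. The last became 0.043 with quantile normalization. Ndufs1, the largest iron-sulfur subunit of the electron path, had levels of 2.93, 2.88 and 2.95 on the IQOS arrays, 2.99, 2.98 and 2.89 on the CS arrays and 3.04, 3.10 and 3.09 on the air arrays. Both exposed groups lay below air without overlap, but neither difference was called (CS minus air -0.12 ± 0.056, adjusted p 0.186; IQOS minus air -0.16 ± 0.056, adjusted p 0.15; SE, limma, n = 3 arrays per group). Ndufv1, which binds the flavin that accepts electrons from NADH, differed by 0.016 for CS against air (95% interval -0.12 to 0.15) and by 0.087 for IQOS against air (95% interval -0.045 to 0.22).

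Complex II, succinate dehydrogenase, joins the citric acid cycle to the respiratory chain, and all 4 of its genes are nuclear. Sdha, the flavoprotein, had levels of 3.79, 3.77 and 3.81 on the IQOS arrays, 3.76, 3.70 and 3.66 on the CS arrays and 3.63, 3.66 and 3.65 on the air arrays. The IQOS arrays were the highest, without overlap with air, and the difference was not called (0.15 ± 0.052, adjusted p 0.156, limma, n = 3 per group). Sdhb, the iron-sulfur subunit, and the membrane anchors Sdhc and Sdhd had changes between -0.12 and 0.031 in the 3 comparisons. For all 4 genes the 95% interval lay within 1.25-fold in every comparison.

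Complex III, the cytochrome bc1 complex, had medians of -0.031 for CS against air, -0.060 for IQOS against air and -0.037 for IQOS against CS. Uqcrc1, a structural core subunit, differed by 0.022 ± 0.062 for CS against air and by -0.099 ± 0.062 for IQOS against air. Uqcrfs1, the Rieske iron-sulfur protein, differed by -0.045 ± 0.067 and -0.0088 ± 0.067 in the same comparisons. The small subunit Uqcrq, named after its values were seen, had levels of 5.32, 5.33 and 5.39 on the IQOS arrays, 5.51, 5.52 and 5.43 on the CS arrays and 5.50, 5.53 and 5.56 on the air arrays. Its IQOS arrays lay below both other groups, and the difference from air was not called (-0.18 ± 0.055, adjusted p 0.109, limma, n = 3 per group).

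Complex IV, cytochrome c oxidase, had a median over the widely expressed subunits of 0.023 for CS against air, which turned to -0.045 with quantile normalization. Cox4i1, the main isoform of the subunit that takes part in regulation by ATP, had levels of 5.49, 5.54 and 5.53 on the IQOS arrays, 5.72, 5.67 and 5.60 on the CS arrays and 5.47, 5.55 and 5.47 on the air arrays. The CS arrays lay above both other groups. The difference from air was 0.17 ± 0.058 (adjusted p 0.104), and the range of adjusted p over the alternatives was 0.039 to 0.316. Cox5a, an early-assembling subunit, had levels of 5.24, 5.24 and 5.33 on the IQOS arrays, 5.42, 5.46 and 5.43 on the CS arrays and 5.26, 5.36 and 5.41 on the air arrays. The CS arrays were again the highest, and IQOS minus CS was -0.17 ± 0.060 (adjusted p 0.115, limma, n = 3 per group).

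Complex V, the ATP synthase, had medians of -0.035 for CS against air, -0.026 for IQOS against air and -0.0060 for IQOS against CS. Atp5a1 and Atp5b encode the alpha and beta subunits of the catalytic head, and Atp5c1 the gamma subunit of the rotating stalk. Their changes lay between -0.081 and 0.095 in the 3 comparisons. Atp5g1, Atp5g2 and Atp5g3 encode the same mature c subunit of the membrane ring. Atp5g1 had levels of 4.56, 4.63 and 4.73 on the IQOS arrays, 4.57, 4.62 and 4.43 on the CS arrays and 4.53, 4.74 and 4.69 on the air arrays. The groups overlapped, and the changes of the 3 genes lay between -0.11 and 0.10. Atpif1, the inhibitor that blocks ATP hydrolysis by complex V and lies outside the symbol rule, had levels of 5.24, 5.37 and 5.39 on the IQOS arrays, 5.64, 5.55 and 5.39 on the CS arrays and 5.30, 5.37 and 5.39 on the air arrays. Its difference of 0.17 ± 0.080 for CS against air was not called (adjusted p 0.199, limma, n = 3 per group).

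**Figure D3:**
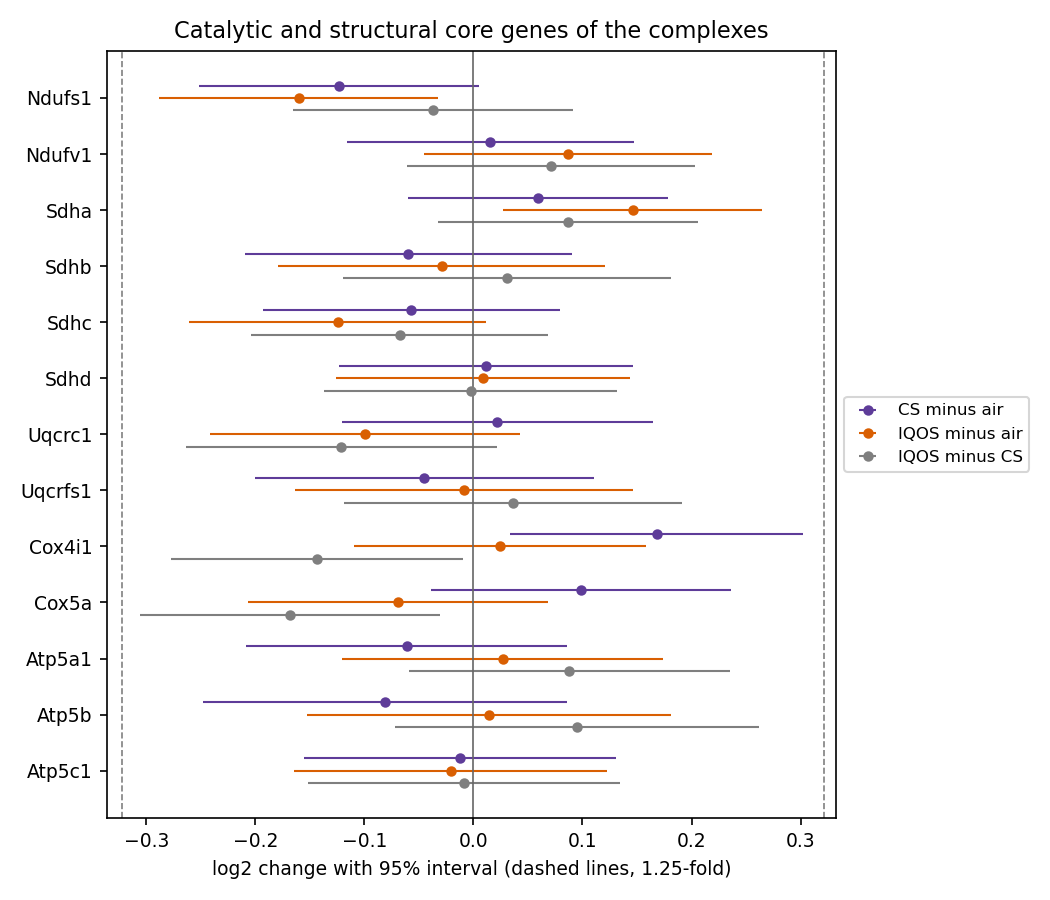
Log2 change with its 95% interval (horizontal axis) for core genes of complexes I to V in the 3 comparisons, with dashed lines at 1.25-fold. The intervals shown lie between the dashed lines, with the lowest end at -0.31 (Cox5a, IQOS against CS) and the highest at 0.30 (Cox4i1, CS against air).

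For the reported probes, the intervals bound how large a missed difference between the groups of arrays could be. Differences between arrays may be technical, so the intervals need not bound a change between animals. For Cox7c in IQOS against CS the reported probe lay within the bound, and its second probe was called at 0.39 ± 0.059. For CS against air, the 95% interval lay within 1.25-fold in 79 of 91 genes (86.8%), beside 35.8% of all tested genes. The figures were 78 of 91 (85.7%) beside 40.5% for IQOS against air, and 80 of 91 (87.9%) beside 36.7% for IQOS against CS. The genes also varied little between arrays of 1 group: the median SD was 0.059 over the 91 genes and 0.12 over all tested genes. The tissue-restricted isoforms of complex IV differed from this, with a median SD of 0.25, and 2, 2 and 1 of their 6 tested genes had intervals within 1.25-fold in the comparisons in the order above. The complex I assembly factors had a median SD of 0.081, and 4 of 8 had intervals within 1.25-fold for CS against air. All tested genes were not matched to the 91 genes for signal level. The part of signal level in these shares and SDs was not tested.

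Cox7b2 was the member with the largest change among the 91 genes. It is a paralogue of the complex IV subunit gene Cox7b and is known in humans for expression in testis. Its levels were -0.75, -0.63 and -0.93 on the IQOS arrays, -1.61, -1.96 and -1.86 on the CS arrays and -1.43, -1.35 and -1.49 on the air arrays. The 3 groups did not overlap, with IQOS highest and CS lowest. It was 2.06-fold higher in IQOS than in CS lungs (log2 1.04 ± 0.11, adjusted p 0.00339) and 1.58-fold higher in IQOS than in air lungs (log2 0.66 ± 0.11, adjusted p 0.0246, limma, n = 3 per group). CS minus air was -0.38 ± 0.11 and was not called (adjusted p 0.0642). Cox7b, its widely expressed partner, was not called in any comparison, with changes of -0.034, 0.069 and 0.10.

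The call of Cox7b2 for IQOS against air ended when air 1, air 2, air 3, IQOS 1 or IQOS 2 was left out singly, with adjusted p between 0.0511 and 0.096 and changes between 0.59 and 0.69. It also ended without a filter on dim probes, with the replicate number as a block and with array row in the fit (adjusted p 0.0613, 0.0517 and 0.0827), so 8 of 20 alternatives ended it. The call for IQOS against CS ended once the fit held a term for array row (0.94, adjusted p 0.173). Of 4 testis germ cell genes, Prm1 and Odf1 were not well above background on any array. Prm2 had levels of -4.33, -4.30 and -4.50 on the IQOS arrays, -4.60, -4.60 and -4.45 on the CS arrays and -4.44, -4.50 and -4.63 on the air arrays. Tnp1 had levels of -3.23, -4.48 and -3.74 on the IQOS arrays, -4.83, -4.76 and -5.25 on the CS arrays and -3.63, -4.79 and -4.65 on the air arrays. Tnp1 was well above background on 1 of 3 CS arrays and on every IQOS and air array, so it was tested through the groups where it is higher and its CS values lie near background. Neither was called. The summed scaled signal of both genes was 0.0956 to 0.156 in IQOS, 0.0721 to 0.0779 in CS and 0.0802 to 0.127 in air lungs, and its part in the Cox7b2 result was not tested.

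Ndufab1, the mitochondrial acyl carrier protein, which serves both complex I and fatty acid synthesis, was the other called gene. Its levels were -1.53, -1.26 and -1.25 on the IQOS arrays, -1.05, -0.94 and -0.92 on the CS arrays and -0.99, -0.92 and -0.82 on the air arrays. All IQOS arrays lay below all CS and air arrays. It fell by 0.43 ± 0.092 on the log2 scale in IQOS against air (adjusted p 0.0455) and by 0.38 ± 0.092 against CS (adjusted p 0.0426, limma, n = 3 per group). Neither call held when any 1 of the 9 arrays was left out, without a filter on dim probes, with array row in the fit or with only the compared groups fitted, and the adjusted p over the alternatives reached 0.127 and 0.613.

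A few further genes came near the threshold and are named here after their values were seen. Ndufb3, an accessory subunit of the membrane arm of complex I, had levels of 4.10, 4.16 and 4.16 on the IQOS arrays, 4.13, 4.01 and 3.93 on the CS arrays and 4.25, 4.33 and 4.19 on the air arrays. The CS arrays lay below the air arrays, at -0.23 ± 0.069 (adjusted p 0.0689). Quantile normalization, the intensity trend fit and leaving out CS 1 brought that difference under the threshold (adjusted p 0.0327, 0.0347 and 0.0499, limma). Ndufa1, an accessory subunit encoded on the X chromosome, had levels of 4.64, 4.67 and 4.67 on the IQOS arrays, 4.91, 4.94 and 4.79 on the CS arrays and 4.87, 4.96 and 4.92 on the air arrays. Its IQOS arrays lay below all others, at -0.25 ± 0.059 against air (adjusted p 0.0593) and -0.22 ± 0.059 against CS (adjusted p 0.057). Both differences passed the threshold with normexp correction (adjusted p 0.0221 and 0.0204) and with the trend fit (0.0215 and 0.0207, limma).

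**Figure D4:**
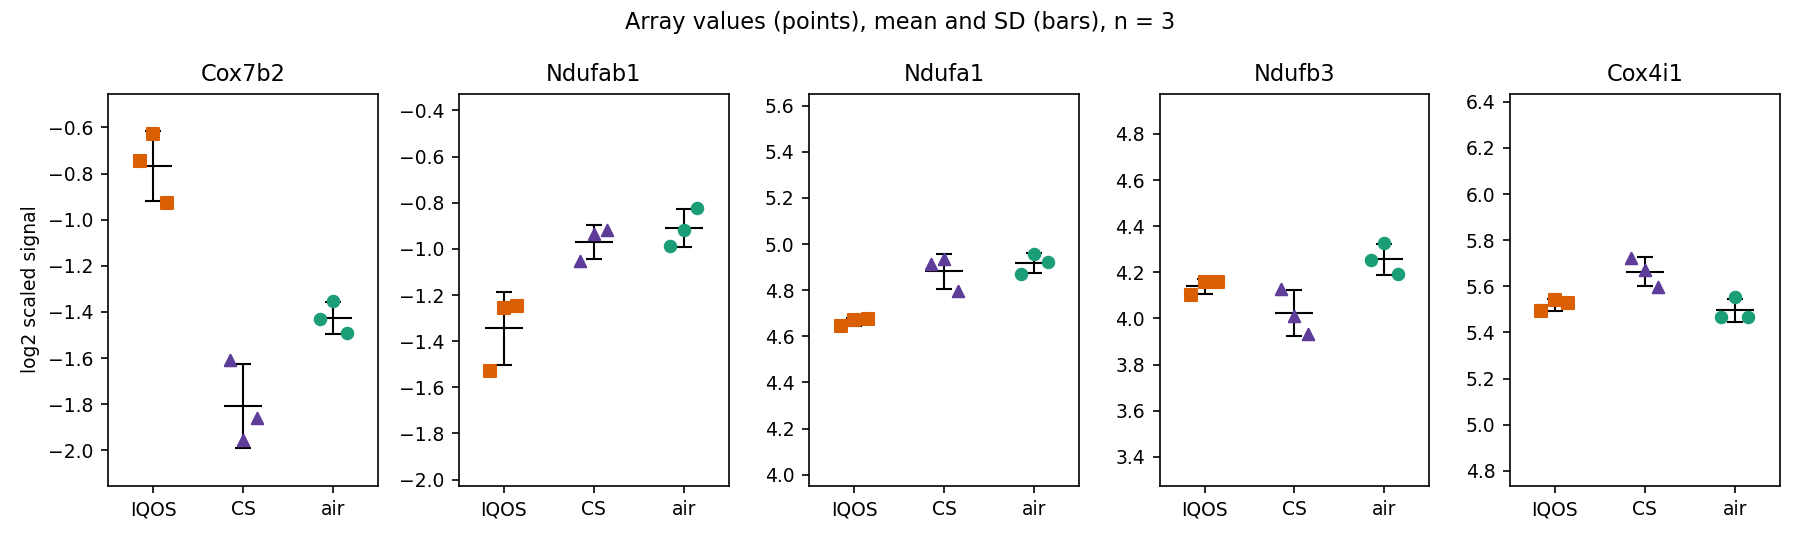
Levels (log2 scaled signal, vertical axis, the same span in each panel) of Cox7b2, Ndufab1, Ndufa1, Ndufb3 and Cox4i1 on each array of the IQOS, CS and air groups, with the mean and SD (n = 3). For Cox7b2 the 3 groups are separate, and for Ndufab1 and Ndufa1 the IQOS arrays lie below the other 6.

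The complex I assembly factors, which build the complex without staying in it, had medians of -0.11 for CS against air and -0.13 for IQOS against air. In each of these comparisons 7 of 8 changes were below 0, beside 8795 and 8736 of 16593 for all tested genes. Both comparisons rest on the same air arrays. In each, 0 of 8 were called, beside 11.7% and 2.87%. The counts at an unadjusted p under 0.05 were 0 and 1, beside 31.2% and 20.3% of all tested genes. Ndufaf4, named after its values were seen, had levels of 0.52, 0.66 and 0.66 on the IQOS arrays, 0.78, 0.96 and 1.06 on the CS arrays and 0.84, 0.81 and 0.73 on the air arrays. The IQOS arrays were the lowest group, and IQOS minus CS was -0.32 ± 0.086 (adjusted p 0.053, limma, n = 3 per group), with a range of 0.0296 to 0.39 over the alternatives. Ndufaf8, also named after its values were seen, lay the other way. Its levels were 0.71, 0.68 and 0.64 in IQOS, 0.53, 0.48 and 0.37 in CS and 0.51, 0.56 and 0.63 in air lungs. For Ndufaf8 IQOS minus CS was 0.21 ± 0.064 and was not called (adjusted p 0.0737, limma, n = 3 per group).

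The muscle-type isoforms Cox6a2, Cox7a1 and Cox8b replace Cox6a1, Cox7a2 and Cox8a in the cytochrome c oxidase of heart and skeletal muscle. They varied widely between arrays of 1 group. Cox7a1 had levels of 2.31, 2.16 and 2.82 on the IQOS arrays, 2.09, 2.22 and 1.48 on the CS arrays and 1.99, 2.95 and 2.58 on the air arrays. CS 3 was the lowest array, and air 2 and IQOS 3 were the highest. Cox8b had levels of 1.92, 1.68 and 2.41 on the IQOS arrays, 1.50, 1.71 and 0.97 on the CS arrays and 1.46, 2.38 and 2.02 on the air arrays. Cox6a2 had levels of 3.93, 3.75 and 4.40 on the IQOS arrays, 3.71, 3.98 and 3.26 on the CS arrays and 3.68, 4.37 and 4.26 on the air arrays. All 3 genes had the same lowest array and the same pair of highest arrays, and their groups overlapped.

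CS minus air was -0.57 ± 0.29 for Cox7a1, -0.56 ± 0.29 for Cox8b and -0.45 ± 0.26 for Cox6a2 (adjusted p 0.238, 0.248 and 0.281, limma, n = 3 per group). For IQOS minus CS the differences were 0.50, 0.61 and 0.37 (adjusted p 0.305, 0.218 and 0.377). For IQOS minus air they lay between -0.080 and 0.054. None was called, and the interval for Cox7a1 in CS against air ran from -1.25 to 0.10. The widely expressed partners Cox6a1, Cox7a2 and Cox8a had changes between -0.081 and 0.13 over the 3 comparisons.

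Cardiac muscle genes varied over the arrays in the same way. The mean of 10 cardiac markers (among them Myh6, Myl7 and Tnni3) ran from 3.37 to 4.04 on the IQOS arrays, from 2.39 to 3.37 on the CS arrays and from 3.07 to 3.99 on the air arrays. Their summed scaled signal was 213.1 to 320.4 in IQOS, 125.6 to 213 in CS and 171 to 320.2 in air lungs. All 10 were measured, none was called in any comparison, and their median change was -0.50 for CS against air. Over the 9 arrays the level of Cox7a1 followed that mean with Pearson's r = 0.976 and Spearman's rho = 0.9 (exact permutation p 0.000102 and 0.00203; adjusted over 8 such relations 0.000408 and 0.00811). For Cox8b r was 0.964 and rho 0.917 (exact permutation p 9.65e-05 and 0.00131, adjusted 0.000408 and 0.00811). For Cox6a2 r was 0.952 and rho 0.883 (exact permutation p 0.000231 and 0.00308, adjusted 0.000617 and 0.0082). The permutations moved arrays freely between exposure groups, and the means of the markers and of these isoforms were lower in CS than in air lungs. The p-values thus include the difference between groups and do not measure variation within a group.

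These relations held when the 2 most extreme arrays were left out and, separately, on the slide of the CS and air arrays. Neither check removed the difference between groups, and the slide check kept CS 3. Without CS 3 and IQOS 3, the 2 arrays farthest from the median of the markers, r over the other 7 was 0.961 for Cox7a1, 0.918 for Cox8b and 0.886 for Cox6a2. On the slide that holds the CS and air arrays (6 arrays) r was 0.978, 0.969 and 0.958 for the same genes (exact permutation p 0.00278, 0.00556 and 0.00417). The slide of the IQOS arrays holds too few for a value. For the partner isoforms r was 0.0992 for Cox6a1, -0.00428 for Cox7a2 and -0.242 for Cox8a (exact permutation p 0.808, 0.991 and 0.53; adjusted 0.924, 0.991 and 0.707). On the slide of the CS and air arrays r was 0.571, 0.279 and -0.31 for Cox6a1, Cox7a2 and Cox8a (exact permutation p 0.236, 0.625 and 0.568). Less cardiac muscle tissue in a sample and less RNA per muscle cell cannot be told apart in whole lung. The part of the cardiac muscle signal in the changes of the muscle-type isoforms was not tested. CS 3 also had the lowest mean of adipocyte, smooth muscle and pericyte, and skeletal muscle markers (-0.35, 0.97 and -2.27). The highest array was air 2 for smooth muscle and pericyte markers and air 1 for the adipocyte and skeletal muscle markers. Relations of the muscle-type isoforms with those lists were not computed, so the relation is not shown to be particular to cardiac muscle.

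**Figure D5:**
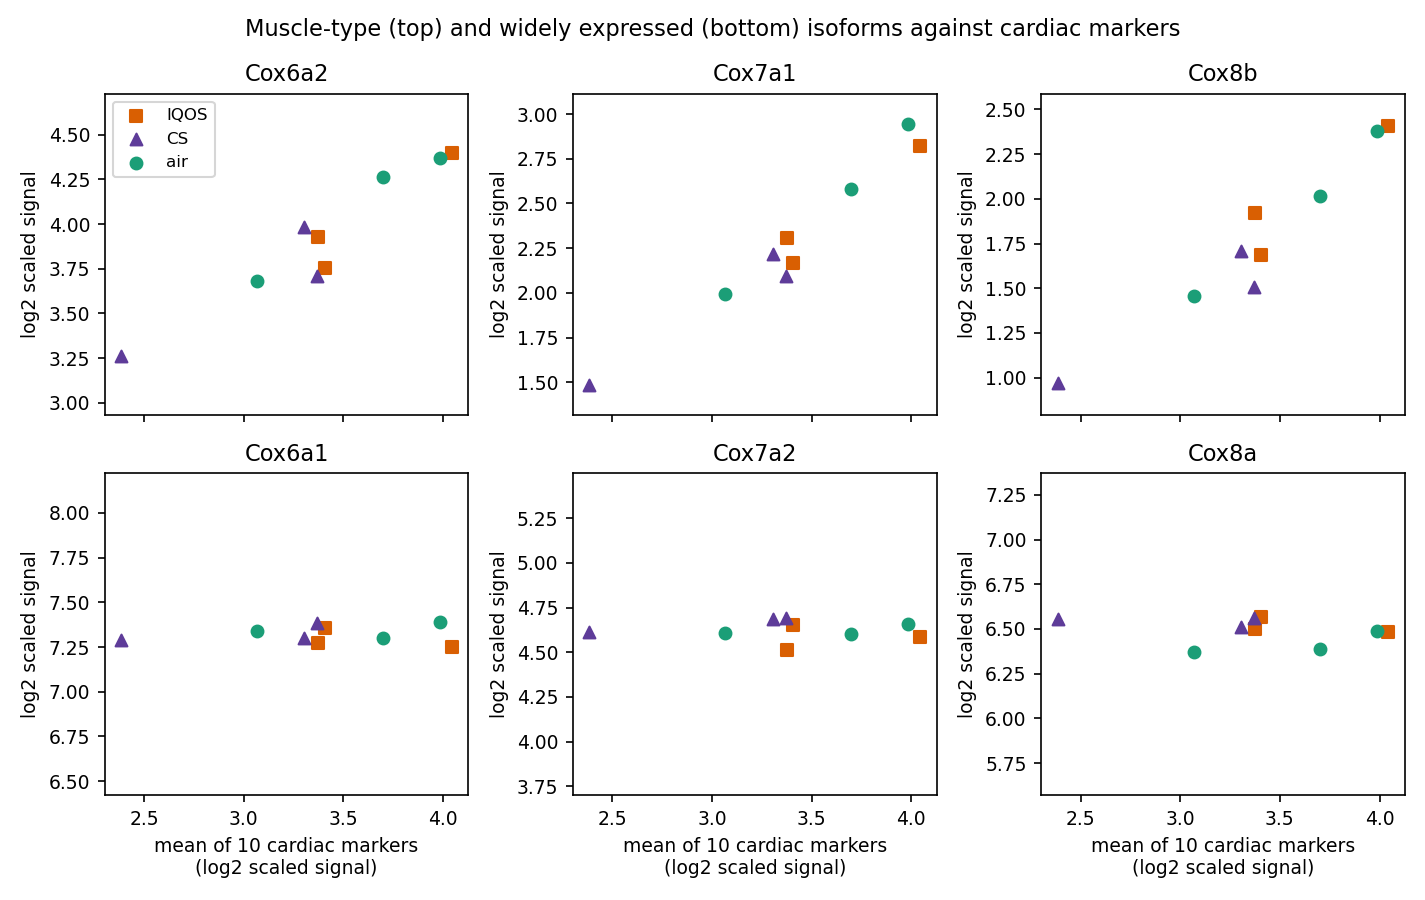
Level of each isoform (log2 scaled signal, vertical axes of equal span) against the mean log2 level of 10 cardiac markers (horizontal axis) on the 9 arrays, with muscle-type isoforms above and their widely expressed partners below. The muscle-type isoforms climb with the markers from CS 3 at the left to air 2 and IQOS 3 at the right, and the partners stay level.

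Promoter windows from RefSeq (GRCm38.p6), from 250 bases before to 50 bases after the annotated transcription start, were matched by symbol for 75 of the 92 genes. The windows of 2 muscle-type isoforms, 2 widely expressed subunits and Cox7b2 are shown. The muscle-type isoforms followed the cardiac markers, the widely expressed ones did not pass that test, and Cox7b2 was called between groups. They lie at chr7:140900397-140900696 on the minus strand for Cox8b, chr7:30183921-30184220 on the plus strand for Cox7a1, chr19:7217567-7217866 on the minus strand for Cox8a, chr5:115348909-115349208 on the minus strand for Cox6a1 and chr5:71548156-71548455 on the minus strand for Cox7b2. Each is printed in the direction of the gene, and capitals mark matches to the motifs named after the sequences.
Cox8b: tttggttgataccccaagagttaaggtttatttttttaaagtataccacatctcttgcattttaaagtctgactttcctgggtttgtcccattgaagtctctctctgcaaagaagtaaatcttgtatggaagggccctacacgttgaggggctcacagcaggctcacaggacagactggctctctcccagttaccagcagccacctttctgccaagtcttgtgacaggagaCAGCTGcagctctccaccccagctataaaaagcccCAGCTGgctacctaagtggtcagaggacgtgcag
Cox7a1: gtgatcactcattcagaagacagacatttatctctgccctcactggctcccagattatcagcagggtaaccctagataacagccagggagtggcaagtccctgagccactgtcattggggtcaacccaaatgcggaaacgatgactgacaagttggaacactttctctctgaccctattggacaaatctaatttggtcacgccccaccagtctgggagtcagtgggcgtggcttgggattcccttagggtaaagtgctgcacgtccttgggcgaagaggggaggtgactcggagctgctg
Cox8a: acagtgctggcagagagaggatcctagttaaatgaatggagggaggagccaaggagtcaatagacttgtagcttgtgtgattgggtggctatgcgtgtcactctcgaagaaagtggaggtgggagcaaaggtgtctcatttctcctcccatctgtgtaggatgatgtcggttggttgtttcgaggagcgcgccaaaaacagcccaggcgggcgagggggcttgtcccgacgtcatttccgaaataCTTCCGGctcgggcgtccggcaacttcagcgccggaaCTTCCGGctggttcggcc
Cox6a1: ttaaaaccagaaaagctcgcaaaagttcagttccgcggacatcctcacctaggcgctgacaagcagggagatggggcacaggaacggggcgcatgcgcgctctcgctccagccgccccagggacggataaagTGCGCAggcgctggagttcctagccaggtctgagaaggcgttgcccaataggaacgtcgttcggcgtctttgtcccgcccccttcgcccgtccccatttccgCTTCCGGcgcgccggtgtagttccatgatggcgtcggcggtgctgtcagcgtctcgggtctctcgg
Cox7b2: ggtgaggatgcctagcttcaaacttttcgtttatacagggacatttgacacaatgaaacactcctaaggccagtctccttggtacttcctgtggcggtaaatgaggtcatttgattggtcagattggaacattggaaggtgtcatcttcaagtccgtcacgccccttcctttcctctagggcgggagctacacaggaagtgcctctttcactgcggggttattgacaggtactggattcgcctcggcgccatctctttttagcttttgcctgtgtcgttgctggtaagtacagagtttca

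The motifs searched on both strands were TGCGCA (a half-site of NRF1), CCGGAAG (bound by ETS factors such as GABPA), AAGATGGCG (YY1), CAGCTG (an E-box) and TAAAAATA (a MEF2 core). NRF1 and GABPA are known activators of respiratory chain genes, YY1 binds many of their promoters, and E-boxes and MEF2 sites are typical of muscle genes. Cox8b held 2 E-boxes. Cox8a held 2 matches to the ETS motif, and Cox6a1 held 1 ETS match and 1 NRF1 half-site. Cox7a1 and Cox7b2 held none of the 5 motifs in these letters. Among the 75 genes, 24% had the NRF1 half-site in a window, beside 8.79% of 27025 mouse genes with a window and 13.4% of the 13094 of them that were tested here. The ETS motif was in 25.3%, beside 9.93% and 16.4%, and the YY1 motif in 8 of the 75 genes, beside 1.64% and 2.82%. The E-box was in 8%, beside 18.3% and 18.5%. The MEF2 core was in 0 of 75, beside 3.09% and 1.69%. A match is a string of letters and was not tested as a binding site.

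Cox4i2 and Ndufa4l2 are isoforms known for regulation by oxygen: Cox4i2 takes part in oxygen sensing in mouse pulmonary arteries, and Ndufa4l2 is induced by HIF-1. Cox4i2 had levels of 0.83, 0.86 and 0.61 on the IQOS arrays, 0.61, 0.60 and 0.56 on the CS arrays and 0.66, 0.80 and 0.56 on the air arrays. CS minus air was -0.084 ± 0.087 and IQOS minus CS 0.18 ± 0.087 (adjusted p 0.56 and 0.229, limma, n = 3 per group). Ndufa4l2 had levels of 2.34, 2.25 and 1.95 on the IQOS arrays, 2.06, 1.89 and 1.83 on the CS arrays and 2.18, 2.57 and 2.09 on the air arrays. Its CS arrays lay below its air arrays, at -0.35 ± 0.15 (adjusted p 0.169). Ndufa4 differed by -0.00010 ± 0.070 in the same comparison.

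Of 10 smooth muscle and pericyte genes 4 were called lower in CS against air and 0 higher, beside 6.12% of all tested genes called lower. Lmod1, Des, Pdgfrb and Cspg4 fell by 0.73, 0.56, 0.56 and 0.44 (adjusted p 0.00408, 0.0386, 0.0141 and 0.0433, limma). The summed signal of all 10 markers was 90.12 to 110.7 in IQOS, 72.96 to 102.7 in CS and 118 to 128.7 in air lungs. Over the 9 arrays Ndufa4l2 followed the mean of these markers with r = 0.675 and rho = 0.7 (exact permutation p 0.0455 and 0.0433; adjusted over the 8 relations 0.091 and 0.0865). Without CS 3 and air 2 its r was 0.217, so the relation rests on those arrays. On the slide of the CS and air arrays r was 0.779. For Cox4i2 r was 0.33 and rho 0.417 (exact permutation p 0.384 and 0.27, adjusted 0.614 and 0.431). The part of these cells in the Ndufa4l2 values was not tested.

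The remaining testis-type isoform, Cox6b2, had levels of 0.38, 0.51 and 0.25 on the IQOS arrays, 0.19, 0.37 and 0.25 on the CS arrays and 0.20, 0.30 and 0.39 on the air arrays. The groups overlapped. Its partner Cox6b1 and Cox7a2l, which takes part in joining complexes III and IV, had changes between -0.077 and 0.087.

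Of the 91 genes, 19 had further tested probes, 21 in all. None of these was called for CS against air or IQOS against air, and 2 were called for IQOS against CS. Of all 37258 tested probes, 2126 were called higher and 1464 lower for IQOS against CS, so 2 of 21 is near the share of all probes. The numbers called higher and lower were 1725 and 2115 for CS against air, and 1022 and 365 for IQOS against air. The second probe of Cox7c had levels of 2.56, 2.58 and 2.56 on the IQOS arrays, 2.24, 2.22 and 2.09 on the CS arrays and 2.30, 2.32 and 2.30 on the air arrays. The IQOS arrays lay above all others, with IQOS minus CS at 0.39 ± 0.059 (adjusted p 0.00975), where the brighter probe of Cox7c gave -0.051 ± 0.067. The second probe of Atp5o, the oligomycin sensitivity subunit of complex V, gave 0.27 ± 0.068 (adjusted p 0.0446), and its brighter probe gave -0.0060 ± 0.069. For both genes the result thus depends on the probe. Probe sequences were not analysed here, so signal from near-identical gene copies was not checked.

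Other lists of mitochondrial genes are read against the 11.7%, 2.87% and 10.1% of all tested genes called for CS against air, IQOS against air and IQOS against CS. None of 16 citric acid cycle genes was called in any comparison, with 2, 2 and 0 at an unadjusted p under 0.05 for CS against air, IQOS against air and IQOS against CS. Of 78 mitochondrial ribosome genes, Mrps18b and Mrps7 rose and Mrpl49 fell with CS against air (0.29, 0.25 and -0.26; adjusted p 0.0461, 0.0435 and 0.0459), 0 were called for IQOS against air, and Mrpl37, Mrps18b and Mrps7 were lower in IQOS than in CS. Median changes of this list were -0.039, -0.078 and -0.044. Of 42 assembly factors outside the symbol rule, Ttc19, which serves complex III, rose with CS against air (0.28 ± 0.069, adjusted p 0.0424). In IQOS against CS, Cox20 was higher and Ttc19, Cox11 and Cox19 were lower (0.27, -0.32, -0.25 and -0.28), and these 4 of 42 are near the background. Of 9 electron carriers and subunits named otherwise, Etfdh was called, at 0.27 ± 0.066 for IQOS against CS (adjusted p 0.0435). That count of 1 stood in 6 of 20 alternatives and was 0 in the others. Cycs, cytochrome c, was not called.

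Among 20 regulators of mitochondrial biogenesis, 1 was called higher and 1 lower for CS against air, a share near that of all tested genes. Pprc1, a coactivator related to PGC-1, rose with CS. Its levels were 1.36, 1.43 and 1.09 on the IQOS arrays, 1.70, 1.66 and 1.57 on the CS arrays and 0.90, 1.34 and 0.88 on the air arrays, and CS minus air was 0.60 ± 0.14 (adjusted p 0.0357, limma, n = 3 per group). Polg2, the accessory subunit of the mitochondrial DNA polymerase, fell by 0.38 ± 0.070 in CS against air (adjusted p 0.0187) and was higher in IQOS than in CS by 0.47 ± 0.070 (adjusted p 0.0094). Nrf1, Gabpa, Tfam and Ppargc1a were not called in any comparison.

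Some glycolysis and hypoxia genes, whose products make ATP without the respiratory chain or respond to low oxygen, were higher in CS lungs. For CS against air, 9 of 25 such genes were called higher and 0 lower, beside 5.60% of all tested genes called higher. Pfkm had the lowest change of the list (-0.48), and the means of Pfkp, Ldhb, Vegfa, Epas1 and Pdk1 were also lower in CS than in air lungs. Hk2, a hexokinase, had levels of 0.22, 0.17 and 0.02 on the IQOS arrays, 1.56, 1.40 and 1.12 on the CS arrays and 0.23, 0.34 and 0.32 on the air arrays. The CS arrays lay above all others, at 1.06 ± 0.11 against air (adjusted p 0.00417, limma, n = 3 per group). Slc2a1, a glucose transporter, Ldha, lactate dehydrogenase A, and Gapdh rose with CS by 0.60, 0.37 and 0.36 (adjusted p 0.0149, 0.0155 and 0.0321). Hif1a rose by 0.33 (adjusted p 0.0259). For IQOS against air, Ndrg1 alone was called (0.46 ± 0.096, adjusted p 0.0438), and that count stood at 1 in 7 of 20 alternatives. For IQOS against CS 6 of 25 were lower, beside 5.18% of all tested genes called lower. The count for CS against air was 3 without air 1 or CS 2, 5 without air 2, air 3 or CS 3, 5 with no filter on dim probes and 1 with array row as a covariate. The median change of this list was 0.18 for CS against air.

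Of 8 markers of alveolar macrophages 5 were called higher for CS against air, beside 5.60% of all tested genes. Siglecf and Car4 lay the other way and were not called (-0.090 and -0.18). Their summed scaled signal was 141.2 to 170.8 in IQOS, 262.8 to 352.9 in CS and 126.1 to 148 in air lungs. Neutrophil markers summed to 172.9 to 425 in IQOS, 328.2 to 727.7 in CS and 182.1 to 228.4 in air lungs. For CS against air 0 of the 6 were called, beside 11.7% of all tested genes. At an unadjusted p under 0.05 there were 5 of 6, beside 31.2%. Of 7 adipocyte markers 1 was called lower for CS against air, beside 6.12% of all tested genes, and 6 had an unadjusted p under 0.05, beside 31.2%. Cidea and Lep lay the other way, with means of 1.13 and -2.20 in CS and 0.55 and -2.32 in air lungs. The summed signal of the adipocyte markers was 14.36 to 25.02 in IQOS, 11.1 to 16.5 in CS and 19.34 to 25.45 in air lungs. Ucp1, the brown fat marker, was well above background on 1 array. Of 6 ciliated cell markers 0 were called for CS against air, beside 11.7% of all tested genes. For IQOS against CS 1 of the 6, Tubb4b, was lower (-0.53, adjusted p 0.0106, limma), beside 5.18% of all tested genes called lower. The summed signal of the ciliated cell markers was 44.75 to 56.29 in IQOS, 64.91 to 66.69 in CS and 57.34 to 60.76 in air lungs. Tubb4b was the brightest of them. Their mean log2 level overlapped between IQOS (1.89 to 2.26) and air lungs (1.97 to 2.15). Of 4 skeletal muscle markers 1, Acta1, fell with CS against air (-0.83, adjusted p 0.0336, limma), beside 6.12% of all tested genes called lower. Acta1 had a value on only 2 of the 3 CS arrays. The part of these cells in the values of the oxidative phosphorylation and glycolysis genes was not tested.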

How the data were processed

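Total RNA of whole lung was measured on 9 one-colour Agilent arrays, 3 for each of 3 exposures. The deposited spot intensities are background-subtracted signals with no normalization between arrays; per the file headers the software was Agilent Feature Extraction 10.7.1.1. The deposited series matrix, an alternative here, gives a ratio of signal to the array's 75th percentile, as its values show. The deposited flags for outliers and for signal above background were used as filters. Depth has no meaning for arrays; signal over background and the number of arrays limit precision.

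Without outlier spots, log2 signals were averaged per probe, and the log2 of the array's 75th percentile was subtracted. Testing required values on 2 or more arrays of each group and, in 1 group or more, signal well above background wherever measured (37258 of 56605 probes). Probes were named by matching accessions to mouse RefSeq (32994 probes). The brightest probe stood for a gene. Changes were fitted over all 9 arrays with limma 3.58.1 (R 4.3.3), adjusted by Benjamini-Hochberg over all tested probes and called at an adjusted p under 0.05. Correlations over arrays used exact permutation tests that moved arrays freely between groups. The fit was tested on simulated data.

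The members, lists and naming rule were chosen with earlier results of these data known. The rule named called genes, the core genes of each complex, isoform pairs and Atpif1; other names are marked in the text, and 1 core gene is not reported here. The 1.25-fold bound on intervals was chosen after the design and with the data in view. Alternatives were normexp correction (offset 50), quantile normalization, median centring, other filters and thresholds, the series matrix, a trend fit, array row, the replicate number as a block, the mean of a gene's probes, only the groups compared, membership without assembly factors or tissue-restricted isoforms, and each array left out. Ndufa4l2 was left out together with the tissue-restricted isoforms of complex IV, which kept 84 tested genes.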

Additional observations from a re-analysis of the deposited data

How the results depend on the processing

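The number of oxidative phosphorylation genes called for CS against air was 0; it became 1 with quantile normalization, 2 with an intensity trend and robust moderation, 2 at an adjusted p under 0.1, and 0 to 2 with 1 array left out (2 without CS 1). It stayed at 0 in the fit of the CS and air arrays alone, which share a slide. For IQOS against air the count of 2 became 6 with normexp correction, 0 without a filter on dim probes, 4 with the trend fit, 1 with the replicate number as a block (Cox7b2 was lost), 0 with array row as a covariate, 1 with the compared groups only, 1 without tissue-restricted isoforms, and 0 to 1 with 1 array left out. For IQOS against CS the count of 2 became 7 with normexp correction, 1 without a filter, 6 with the trend fit, 0 with array row, 1 with the compared groups only, 5 at an adjusted p under 0.1, 1 without tissue-restricted isoforms, and 1 to 2 with 1 array left out. The cause of these moves was not tested. The array row term rests on the air arrays alone, since the CS arrays lay in 1 row and the IQOS arrays in another.

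The median change of the genes ranged from -0.083 to -0.0093 for CS against air, from -0.072 to -0.0039 for IQOS against air and from -0.031 to 0.041 for IQOS against CS. By complex, 11 of 420 medians moved by more than the spread between arrays. Quantile normalization gave -0.045 for widely expressed complex IV genes and -0.10 for complex V in CS against air, and 0.043 for complex I and 0.063 for complex II in IQOS against CS. Normexp correction gave -0.18 for the assembly factors and 0.043 for widely expressed complex IV genes in IQOS against air. In IQOS against CS it gave -0.098 for the assembly factors, 0.0098 for widely expressed complex IV genes and 0.067 for complex V. Leaving out 1 array gave a lowest median of -0.18 and a highest of -0.095 for the assembly factors in IQOS against air, and -0.065 and 0.0215 in IQOS against CS. In none of these settings did the median of all tested genes move by more than 0.1.

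Replicate numbers were not used to pair the samples in the reported fit. Of 9 same-numbered pairs, 4 had a correlation of deviations over 0.1, and the values ran from -0.078 to 0.2. Pairs with different numbers were not compared, so this count cannot decide whether the samples were paired. Over 36 named genes and 20 settings in 3 comparisons, 106 of 2160 values changed sign, none of them called in either setting. Counts of called genes in the pathway lists were recomputed as an alternative added after seeing the data. They ranged from 1 to 12 for glycolysis and hypoxia in CS against air (reported 9), from 0 to 7 for the mitochondrial ribosome (reported 3), from 0 to 3 for the assembly factors outside the symbol rule (reported 1) and stayed at 0 for the citric acid cycle. In IQOS against CS the same lists ranged from 0 to 10 (reported 6), 0 to 8 (reported 3) and 0 to 10 (reported 4), the electron carriers from 0 to 1 (reported 1), and the citric acid cycle stayed at 0. In IQOS against air, glycolysis and hypoxia ranged from 0 to 2 (reported 1) and the citric acid cycle from 0 to 1 (reported 0). With 3 arrays a group, the number of arrays limits every value.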
